A study of Sus scrofa with 18 samples.

Results

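The 63 genes described here share a late time course in pig kidney epithelial cells given all-trans retinoic acid (ATRA, the form of vitamin A that binds nuclear retinoic acid receptors). They were chosen from 12361 genes measured by a probe set with 1 symbol. A gene was taken when its mean log2 signal was less than 0.2 above the 0 h mean at 4 h of ATRA and at least 0.6 above it at 12 h. In all, 89 genes met both thresholds, and 26 of them were set aside by symbol: 12 were unnamed loci and 14 were named genes, most of them of replication and mitosis. The thresholds used the arrays at 0, 4 and 12 h, so differences among those times describe how the members were picked and are not tests. Differences of any other time from 0, 4 or 12 h share those arrays and are descriptions too. The arrays at 0.5, 1 and 8 h were used only, with all the others, to pick the brightest probe set of a gene, and the tests below rest on them.

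The series holds 18 Affymetrix arrays of total RNA from LLC-PK1, an epithelial line from a male Hampshire pig kidney, grown past confluence. RNA was taken at 0 h and after 0.5, 1, 4, 8 and 12 h with ATRA. Each of the 6 times had 3 arrays labelled as biological replicates 1 to 3. The labels do not state the ATRA dose. No untreated array at a later time was analysed here, so the effects of ATRA and of time in culture cannot be told apart. The cells are 1 established line without the other cell types of the kidney, which limits them as a model of the organ.

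Most of the members have roles in the cell cycle, DNA repair or nucleotide supply. In a dividing cell, E2F transcription factors switch on the genes for DNA replication and for nucleotide supply before DNA synthesis begins, and MYB-family factors take part in switching on the genes for mitosis later in the cycle. Cells that have stopped dividing keep both sets low through repressor complexes of the retinoblastoma family. Renal tubule cells at confluence divide little, and they can re-enter the cycle after injury or stimulation. Other members belong to sterol synthesis, which is controlled through SREBP factors, and to glycolysis and the hypoxia response, which is controlled through HIF factors. By known role, 41 of the 63 members fall in groups counted here as cell cycle (replication, transcription factors, repair, mitosis and nucleotide supply). The other 22 have another role. The groups are broad, were drawn up with earlier results known, and include genes such as RRM2B that also act outside the cycle.

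Most members had the late course that the thresholds ask for by 8 h already. Against 0 h, the median log2 difference of the 63 members was close to 0 early (-0.03 at 0.5 h and -0.17 at 1 h) and still -0.15 at 4 h. It then stood at 0.67 at 8 h and 0.73 at 12 h. At 4 h the members ran from -0.71 to 0.18, and 48 of them were below their 0 h mean. At 8 h 61 members were above it, 38 of them by 0.6 or more. NAT8 and NFATC1 were the exceptions, with means at 8 h still below those at 0 h. The 0 h arrays helped to choose the members through both thresholds. The one at 12 h favours genes that were low at 0 h, and the one at 4 h favours genes that were high there. The differences from 0 h at 0.5, 1 and 8 h are therefore no independent result. The differences at 12 h ran from 0.6 to 1.28 and were mostly modest, with 5 members at 1 or more. Between 8 and 12 h the mean went further up for 43 members and not for 20. On 42 members all 3 arrays at 12 h were above all 3 arrays at 0 h, while 21 overlapped; the background over all genes was 14.2%. The fit across all genes called 15 members higher at 12 h than at 0 h (23.8%), where the background over all genes was 1.52%. Nothing is read from these shares, since the members were picked on this difference.

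**Figure D1:**
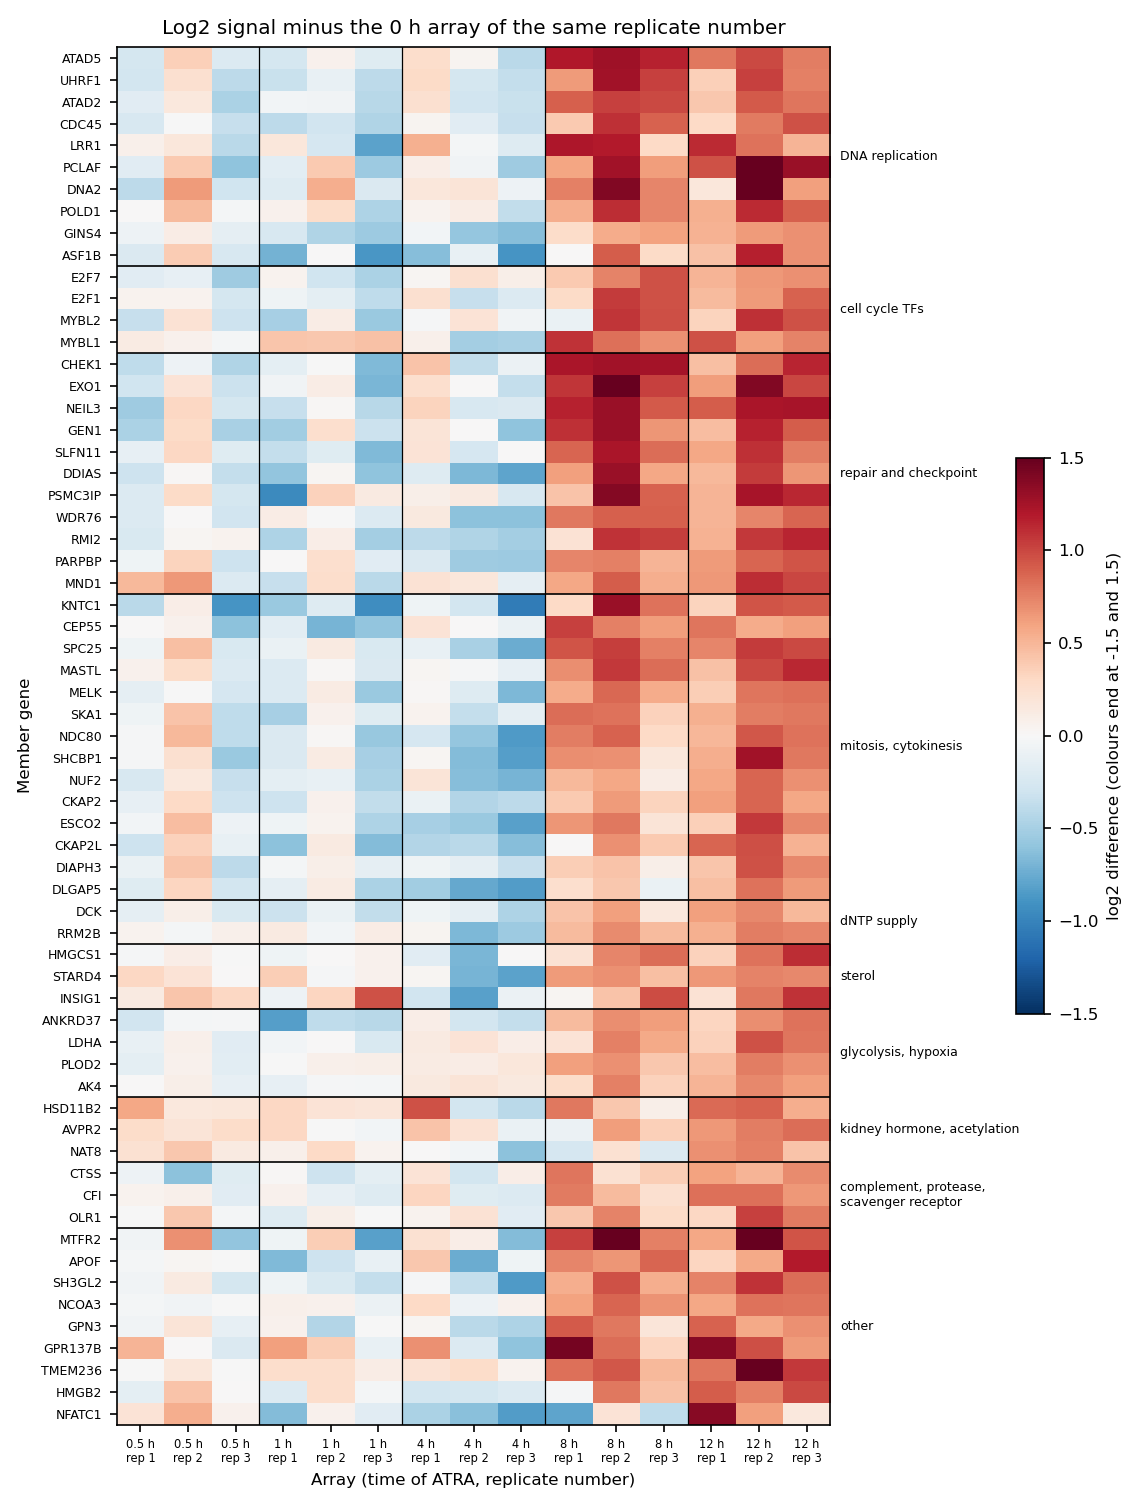
Log2 signal of each member (rows, grouped by role) on each array after ATRA, minus the 0 h array with the same replicate number (columns in order of time). Blue is lower and red is higher. The columns at 0.5, 1 and 4 h are mixed, and those at 8 and 12 h are red for nearly all members, with NFATC1 and NAT8 pale or blue at 8 h.

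The values near the thresholds show how gradual the choice was. Just inside at 12 h were CTSS with a difference of 0.605, DCK with 0.606 and ANKRD37 with 0.61, and just outside were POLA2 with 0.579, BARD1 with 0.574 and PGM3 with 0.574. At 4 h TMEM236 at 0.185, AVPR2 at 0.182 and AK4 at 0.165 were just inside, and CASQ1 at 0.211, SCD at 0.211 and SDSL at 0.227 just outside. Membership also moved with single arrays. Without the second array at 0 h the rule took 41 genes, 35 of them among the 63, and without any other single array it took 51 to 78. Of the 63 members, 46 were kept without the first array at 0 h and 44 without the third. Without the first array at 12 h 43 were kept, and without each of the remaining arrays 54 to 63.

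On the arrays that the thresholds did not use, the members were higher at 8 h than early. The early level is the mean of the 0.5 and 1 h arrays, which had already received ATRA. In the limma fit of all 18 arrays (p adjusted by Benjamini-Hochberg over all probe sets, called at an adjusted p under 0.05), 31 of 63 members (49.2%) were higher at 8 h and 0 were lower, where the background over all genes was 7.32% higher and 5.61% lower. The other 32 members were not called. The median difference of the members was 0.72 on the log2 scale, from -0.33 to 1.54, beside -0.0056 over all genes. All 3 arrays at 8 h were above all 6 early arrays for 34 members (54.0%), with a background of 9.72%. Within the same replicate number, 8 h was above the early level in 3 of 3 numbers for 58 members (92.1%), against a background of 24.0%. These are bulk RNA levels, in which more cells of a kind and more RNA per cell cannot be told apart.

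The replicates differed in level for these genes. Averaged over the 63 members, the log2 signal at 0.5 h was 7.05, 6.71 and 6.38 on replicates 1, 2 and 3, and at 1 h it was 6.96, 6.52 and 6.30. At 8 h it was 7.70, 7.37 and 7.15. Replicate 1 was thus the highest and replicate 3 the lowest at each of these times, and the lowest array at 8 h was above all early arrays. Replicate 1 was the highest of the 3 arrays for 53 members at 0.5 h, 52 at 1 h and 49 at 8 h, where over all genes the shares were 40.3%, 41.3% and 43.2%. It was highest at all 6 times for 35 members, 28 of them with a cell cycle role. The share of all genes highest in replicate 1 at all 6 times was not counted. At 4 h replicate 1 was the highest for 61 members, beside a share of 41.9% over all genes. The mean of the members on replicate 1 was 7.13 at 0 h and 7.19 at 4 h. On replicates 2 and 3 it was 6.5 and 6.59 at 0 h and 6.26 and 6.21 at 4 h. The lower mean at 4 h thus came from replicates 2 and 3. As a median over the members, the difference of 8 h from the early level was alike in the replicates, at 0.71, 0.74 and 0.84. Single members could differ more between replicates, in either order.

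Once the replicate number entered as a blocking term, which takes out those levels, 55 of 63 members (87.3%) were higher at 8 h and 0 were lower, with a background of 11.6% higher and 9.33% lower. All 31 members called without the block were among them, and 24 were called with the block only. The median standard error (SE) of the members' difference was 0.24 without the block and 0.142 with it, where over all genes it was 0.121 and 0.102. The 8 members called in neither fit were NFATC1, NAT8, AVPR2, INSIG1, HSD11B2, DLGAP5, DIAPH3 and HMGB2. Without the block, the count of 31 fell to 19 without replicate 1 at 8 h and to 20 without replicate 2 at 8 h. It was 3 with all arrays of replicate 2 left out and 5 without those of replicate 3. With the block these counts were 51, 47, 36 and 34. Of the 31 calls, 17 were kept in each of the 9 fits that left out 1 array at 0.5, 1 or 8 h.

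**Figure D2:**
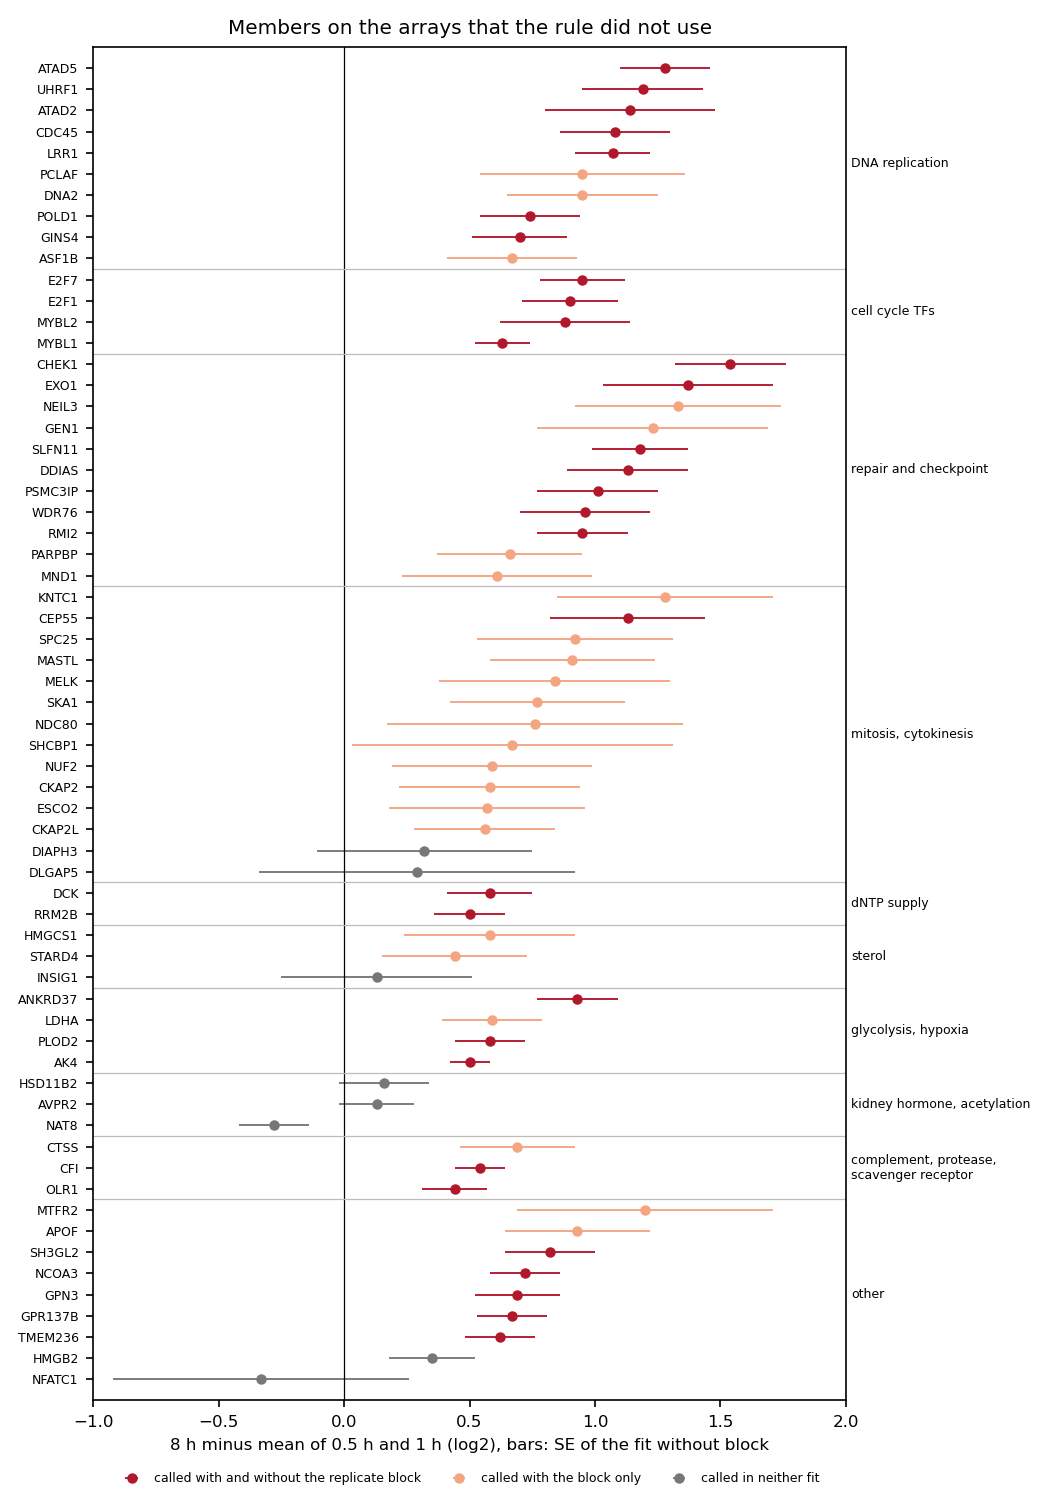
Log2 difference between 8 h and the mean of 0.5 and 1 h for each member, grouped by role, with the SE of the fit without the block as the bar (3 arrays at 8 h, 6 early arrays). Points to the right of 0 are higher at 8 h; 61 of 63 lie there, and the bars are widest among the mitosis genes.

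Between 0.5 and 1 h no member was called, with or without the block, where the background over all genes was 0.316% without it and 0.591% with it. At an unadjusted p under 0.05 the limma fit gave 2 members, with a background of 6.11%, and 8 with the block, with a background of 9.46%. The mean was lower at 1 h than at 0.5 h for 48 of the 63, with a median difference of -0.11 beside -0.027 over all genes. The share of all genes lower at 1 h was not counted, and the members were measured on the same arrays, so nothing is read from the 48.

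The 10 members of DNA replication had a median difference of 1.01 between 8 h and the early level, from 0.67 to 1.28. All 10 were higher with the block, and 7 of them without it. They are CDC45 and GINS4, parts of the helicase that unwinds the DNA; LRR1, which takes part in removing that helicase at the end of replication; POLD1, the catalytic subunit of DNA polymerase delta; and DNA2, a nuclease and helicase that trims flaps. PCLAF binds the sliding clamp PCNA, and ATAD5 unloads it. UHRF1 keeps up DNA methylation on the new strand, ASF1B hands over histones, and ATAD2 is a chromatin ATPase.

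PCLAF (probe set 15194250) had the largest difference at 12 h of all members. Its log2 signals on replicates 1, 2 and 3 were 8.81, 7.68 and 7.81 at 0 h, 8.91, 7.63 and 7.28 at 4 h and 9.77, 9.26 and 9.11 at 12 h, a difference of 1.28 ± 0.47 (SE) or 2.42-fold. All 3 arrays at 12 h were above those at 0 h, while the arrays at 4 h spread around the 0 h level. On the other arrays it was at 8.64, 8.07 and 7.21 at 0.5 h, 8.65, 8.07 and 7.26 at 1 h and 9.4, 8.94 and 8.44 at 8 h. Replicate 3 at 8 h was below replicate 1 at 0.5 and 1 h, so the groups overlapped, although each replicate was higher at 8 h, by 0.76, 0.87 and 1.21. The difference was 0.95 ± 0.41, with a limma adjusted p of 0.175 without the block and 0.00154 with it.

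CDC45 (probe set 15225733) was at 6.66, 6.25 and 5.92 at 0.5 h, 6.51, 5.97 and 5.81 at 1 h and 7.29, 7.35 and 7.15 at 8 h. The arrays at 8 h lay together and above all early arrays. It rose 2.11-fold (log2 difference 1.08 ± 0.22, limma adjusted p = 0.00571). ATAD5 (probe set 15208755) was at 6.24, 6.3 and 6.02 at 0.5 h, 6.24, 6.01 and 6.05 at 1 h and 7.7, 7.21 and 7.38 at 8 h, also without overlap. Its rise of 2.43-fold (1.28 ± 0.18, limma adjusted p = 0.000421) was the largest of the replication members. LRR1 (1.07 ± 0.15) and UHRF1 (1.19 ± 0.24) also rose without overlap. ATAD5, LRR1, UHRF1 and CDC45 were called in each of the 9 fits without 1 array, whereas ATAD2, POLD1 and GINS4 were called in 2 of them. PCLAF, DNA2 and ASF1B were called with the block only.

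Several of these genes were lower at 12 h than at 8 h. The mean of ATAD5 went down by 0.36 on the log2 scale between these times and those of UHRF1 and ATAD2 by 0.26, while PCLAF went up by 0.45. For the replication group the median difference between 12 and 8 h was -0.1, with 4 of 10 members higher at 12 h. The arrays at 12 h took part in choosing the members, so these are descriptions.

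All 4 transcription factors of the cell cycle among the members rose at 8 h against the early level, with differences from 0.63 to 0.95. E2F1, an activator of replication genes, was at 6.49, 6.28 and 5.87 at 0.5 h, 6.38, 6.08 and 5.75 at 1 h and 6.73, 7.28 and 7.09 at 8 h (probe set 15249045). The groups did not overlap, but replicate 1, the highest early, was the lowest at 8 h, and the difference was 0.3 in that replicate, 1.1 in replicate 2 and 1.29 in replicate 3. The rise was 1.86-fold (0.90 ± 0.19, limma adjusted p = 0.00637). E2F7, a repressor that E2F1 itself induces, rose by 0.95 ± 0.17 on the log2 scale (limma adjusted p = 0.00188). MYBL2, which acts on mitotic genes, rose by 0.88 ± 0.26 (limma adjusted p = 0.0406) and was called in 2 of the 9 fits without 1 array. Within replicates 1, 2 and 3 the differences were 0.45, 0.95 and 1.46 for E2F7 and 0.32, 0.91 and 1.4 for MYBL2. For MYBL1, described next, they ran the other way, at 0.81, 0.59 and 0.48.

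MYBL1, best known from germ cells, had another early course. It was at 8.3, 8.34 and 8.41 at 0.5 h and 8.6, 8.67 and 8.88 at 1 h (probe set 15279021). It then stood at 8.26, 7.76 and 7.95 at 4 h and 9.26, 9.1 and 9.13 at 8 h. All 3 arrays at 1 h were above those at 0.5 h, a difference of 0.37 that was not called (limma adjusted p = 0.391). Its rise at 8 h of 0.63 ± 0.11 was called (limma adjusted p = 0.00183), and unlike most members replicate 1 was not its highest array at 0, 0.5 or 1 h.

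The 11 members of DNA repair, recombination and checkpoint signalling had the highest median of any role group, 1.13 between 8 h and the early level. All 11 were higher with the block and 7 without it. CHEK1, the kinase that halts the cycle when replication forks stall, had the largest rise of all 63 members. It was at 5.17, 5.08 and 4.8 at 0.5 h, 5.4, 5.15 and 4.59 at 1 h and 6.78, 6.42 and 6.5 at 8 h (probe set 15326582). No early array came near those at 8 h, and each replicate was higher at 8 h, by 1.49, 1.31 and 1.81. The rise was 2.9-fold (1.54 ± 0.22, limma adjusted p = 0.000462). At 12 h it stood at 6.0, 6.0 and 6.39, and its mean was 0.44 lower than at 8 h, the steepest such step down among the members.

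EXO1, a nuclease of mismatch repair and of DNA end resection, was at 6.19, 5.63 and 5.42 at 0.5 h, 6.44, 5.54 and 5.05 at 1 h and 7.56, 6.93 and 6.76 at 8 h (probe set 15200031). Its 8 h arrays were all above the early ones, and it rose 2.59-fold (1.37 ± 0.34, limma adjusted p = 0.0178), a call kept in 8 of the 9 fits without 1 array. NEIL3, a glycosylase that removes oxidised bases and opens DNA crosslinks, was at 4.66, 4.56 and 3.79 at 0.5 h, 4.84, 4.27 and 3.63 at 1 h and 6.34, 5.55 and 4.97 at 8 h. Its groups did not overlap either, but replicate 3 was low throughout. The difference of 1.33 ± 0.41 had a limma adjusted p of 0.0502 without the block and 0.000136 with it.

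The remaining repair members were RMI2, of the complex that dissolves recombination junctions; GEN1, a nuclease that cuts them; PSMC3IP and MND1, partners that help the strand exchange of recombination; PARPBP, an inhibitor of recombination; and SLFN11, which blocks stalled forks. WDR76, a nuclear WD-repeat protein, and DDIAS, named for its action against apoptosis after DNA damage, complete the group. RMI2 (0.95 ± 0.18), SLFN11 (1.18 ± 0.19) and DDIAS (1.13 ± 0.24) rose and kept their calls in each of the 9 fits without 1 array. PSMC3IP (1.01 ± 0.24) kept its call in 8 of them and WDR76 (0.96 ± 0.26) in 3. GEN1 (1.23 ± 0.46), PARPBP (0.66 ± 0.29) and MND1 (0.61 ± 0.38) were called with the block only. A dimmer probe set of SLFN11, with a mean of 3.04 beside 6.98, differed by 0.06 ± 0.15 and was not called.

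The 14 members of mitosis and cytokinesis were the lowest at 4 h of the cell cycle groups, with a median of -0.42 against 0 h and 13 of 14 below their 0 h mean. Between 8 h and the early level their median was 0.72, from 0.29 to 1.28, and 14 of 14 were higher in each of the 3 replicate numbers. CEP55, a scaffold of the final cut between daughter cells, was the one called without the block (1.13 ± 0.31, limma adjusted p = 0.0281), and it was called in 5 of the 9 fits without 1 array. With the block 12 of 14 were called. The median SE was 0.4 without the block and 0.14 with it, the widest gap of any role group. The mean log2 signal of the group was 6.73, 6.04 and 5.40 on replicates 1, 2 and 3 at 0.5 h and 7.42, 6.53 and 6.15 at 8 h, so replicate 1 at 0.5 h was above replicates 2 and 3 at 8 h.

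NDC80, NUF2 and SPC25 belong to the complex that ties kinetochores to microtubules, SKA1 stabilises that tie, and KNTC1 serves the checkpoint that waits for it. NDC80 was at 7.75, 6.78 and 5.86 at 0.5 h, 7.55, 6.31 and 5.67 at 1 h and 8.54, 7.17 and 6.54 at 8 h (probe set 15305941). The groups overlapped widely, with replicate 1 more than 1 unit above replicate 3 at each of these times, although the replicates differed from their own early level by 0.89, 0.62 and 0.78. The difference of 0.76 ± 0.59 had a limma adjusted p of 0.528 without the block and 0.00322 with it. KNTC1 (1.28 ± 0.43), SPC25 (0.92 ± 0.39), SKA1 (0.77 ± 0.35) and NUF2 (0.59 ± 0.40) were likewise called with the block only.

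Of the other mitotic members, MASTL is the kinase that keeps mitotic phosphatase activity low, MELK is a kinase of dividing cells, ESCO2 acetylates cohesin, CKAP2 and CKAP2L bind microtubules, and SHCBP1 acts at the midbody. They had differences from 0.56 (CKAP2L) to 0.91 (MASTL) and were called with the block only. SHCBP1, CKAP2L, ESCO2 and NUF2 kept that call in 1 of the 3 fits that left out an array at 8 h. DLGAP5, a spindle protein (0.29 ± 0.63), and DIAPH3, a formin of the dividing cell cortex (0.32 ± 0.43), were called in neither fit. In this group 11 of 14 members were higher at 12 h than at 8 h, with a median step of 0.13. The replication and the repair groups stood at -0.1 and -0.09. These steps are descriptions, since the arrays at 12 h took part in choosing the members.

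**Figure D3:**
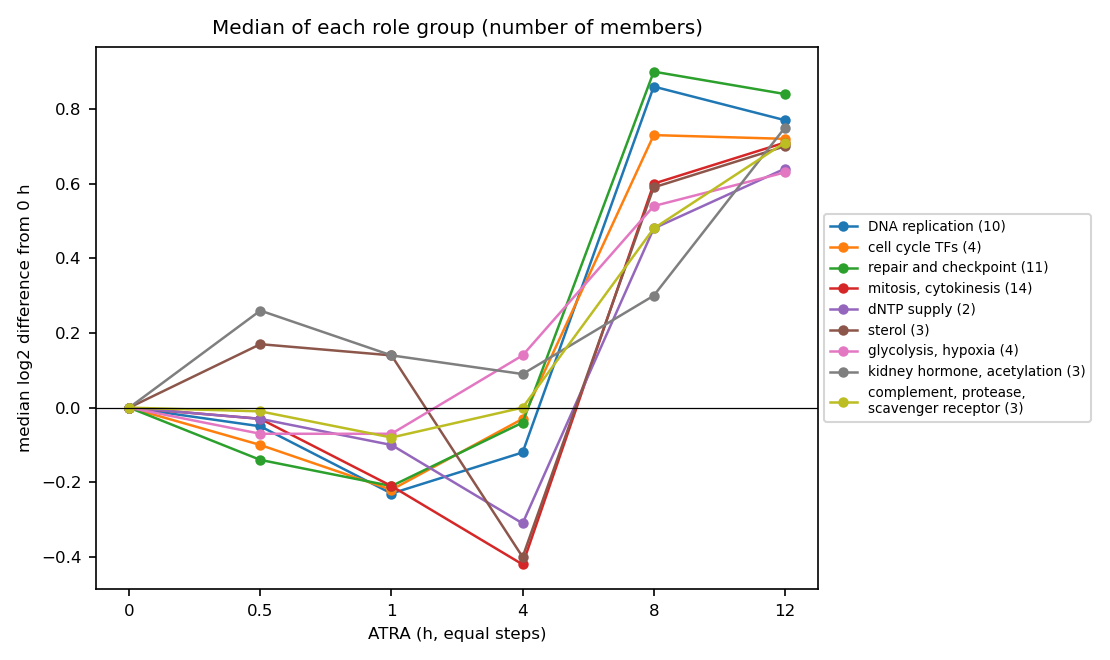
Median log2 difference from 0 h over the members of each role group (number of members in brackets) at each time, with times in equal steps. All lines lie below 0.2 at 4 h because the rule asked for it; replication and repair are highest at 8 h (0.86 and 0.9), and the kidney group reaches 0.3 at 8 h and 0.75 at 12 h.

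Both members of deoxynucleotide supply were called higher at 8 h, and both calls were lost in most fits without 1 array. DCK phosphorylates salvaged deoxynucleosides and differed by 0.58 ± 0.17 (limma adjusted p = 0.0399), and RRM2B, a p53-induced subunit of ribonucleotide reductase, by 0.50 ± 0.14 (limma adjusted p = 0.0281). Of the 9 fits that left out 1 array at 0.5, 1 or 8 h, 3 called DCK and 4 called RRM2B. The lowest array of DCK at 8 h, 7.61, was just under its highest early array, 7.62.

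The members can be set beside the other genes of the same pathways. Of a list of 62 genes of replication and S phase, 39 were measured, 10 of them members. Among its 29 other genes, 20 were higher at 8 h than early and 0 were lower (25 and 0 with the block), with a median difference of 0.69. DSCC1 (1.90 ± 0.18), a clamp loader subunit, CCNE2 (1.87 ± 0.31), a cyclin of S phase entry, and CDC6 (1.70 ± 0.21), which loads the helicase, differed by more than any of the 63 members. All 3 of these were above 0.2 at 4 h (0.37, 0.85 and 0.3 against 0 h), which kept them out. Of a list of 46 genes of DNA repair, 28 were measured; 10 of the 22 that are no members were higher and 0 lower (13 and 1 with the block). Of a list of 85 mitotic genes, 51 were measured. Among the 40 that are no members 4 were higher and 0 lower, or 19 and 0 with the block, with a median of 0.35. The background over all genes was 7.32% higher and 5.61% lower, or 11.6% and 9.33% with the block. Without the block the share of mitotic genes called higher was thus near the background. The genes that are no members include some set aside by symbol, such as NCAPG and FANCD2, which met both thresholds.

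The 3 members of sterol metabolism were HMGCS1, an early enzyme of cholesterol synthesis, INSIG1, which holds the SREBP activator in the endoplasmic reticulum, and STARD4, which carries cholesterol between membranes. None was called without the block. HMGCS1 was at 10.68, 10.1 and 9.42 at 0.5 h, 10.64, 10.01 and 9.49 at 1 h and 10.92, 10.73 and 10.27 at 8 h (probe set 15242729). The replicates lay apart and the groups overlapped, with differences of 0.25, 0.68 and 0.82 within replicates 1 to 3. The difference was 0.58 ± 0.34, with a limma adjusted p of 0.36 without the block and 0.0181 with it, and it was called in 1 of the 3 blocked fits without an array at 8 h. STARD4 (0.44 ± 0.29) had a limma adjusted p of 0.432 without the block and 0.0314 with it. INSIG1 (0.13 ± 0.38) was called in neither fit. At 4 h the 3 genes were below 0 h, with a median of -0.4. Of a list of 39 genes for sterol and fatty acid synthesis, 23 were measured, 3 of them members. Among its 20 other genes, 2 were higher at 8 h than early and 0 lower, or 7 and 1 with the block. The background over all genes was 7.32% higher and 5.61% lower, or 11.6% and 9.33% with the block.

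Of the 4 members of glycolysis and the hypoxia response, 3 were higher at 8 h without the block and 4 with it. AK4, a mitochondrial adenylate kinase, was at 9.67, 9.62 and 9.51 at 0.5 h, 9.55, 9.51 and 9.6 at 1 h and 9.95, 10.29 and 9.98 at 8 h (probe set 15306467). No early array reached the 8 h arrays. The rise was small, 1.41-fold, and its error was among the smallest (0.50 ± 0.08, limma adjusted p = 0.00109). ANKRD37, a HIF target, rose by 0.93 ± 0.16 (limma adjusted p = 0.00178) and PLOD2, a lysyl hydroxylase of collagen, by 0.58 ± 0.14 (limma adjusted p = 0.0156), the latter called in 7 of the 9 fits without 1 array. LDHA, which makes lactate from pyruvate, was at 11.45, 11.08 and 10.75 at 0.5 h, 11.52, 11 and 10.69 at 1 h and 11.77, 11.76 and 11.49 at 8 h. Its lowest array at 8 h was just under the highest at 1 h, and the difference of 0.59 ± 0.20 had a limma adjusted p of 0.0828 without the block and 0.00197 with it. Of a list of 44 genes of these processes, which was drawn up after values had been seen, 35 were measured, 4 of them members. Among its 31 other genes, 6 were higher and 1 lower, or 8 and 2 with the block. The background over all genes was 7.32% higher and 5.61% lower, or 11.6% and 9.33% with the block.

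A trio of members has roles in kidney physiology. NAT8, an acetyltransferase of the proximal tubule that completes mercapturic acids, was at 10.13, 9.97 and 10.03 at 0 h, 9.88, 10.2 and 9.81 at 8 h and 10.81, 10.73 and 10.46 at 12 h (probe set 15275925). The arrays at 12 h were above all those at 0 and 8 h, and the latter overlapped. Early it was at 10.36, 10.38 and 10.17 at 0.5 h and 10.21, 10.27 and 10.08 at 1 h. The difference between 8 h and the early level was -0.28 ± 0.14, with a limma adjusted p of 0.244 without the block and 0.087 with it. AVPR2, the vasopressin receptor that acts on water reabsorption, differed by 0.13 ± 0.15, and HSD11B2, which inactivates cortisol in mineralocorticoid target cells, by 0.16 ± 0.18. None of the 3 was called in either fit. Between 8 and 12 h their means went up by 0.33 to 0.7. The rule asked for at least 0.6 above 0 h at 12 h, so a member still under that at 8 h had to go up. This step is a description of the choice.

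**Figure D4:**
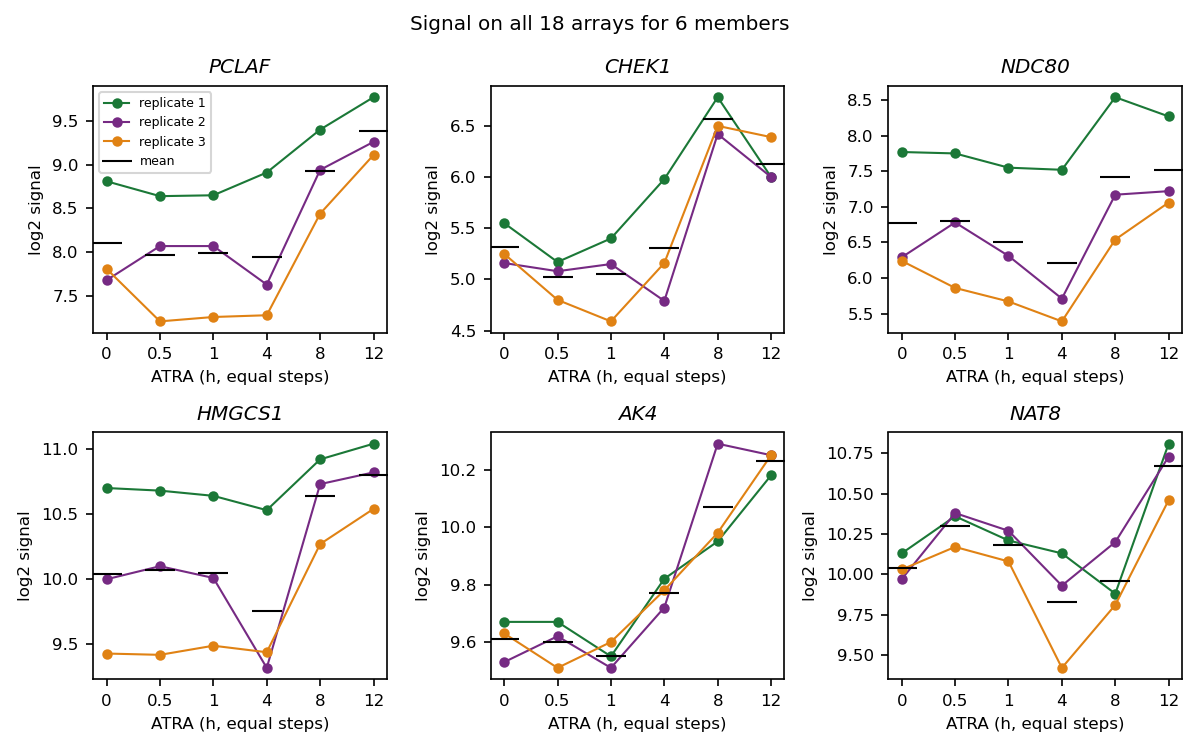
Log2 signal of 6 members on all 18 arrays against time with ATRA in equal steps; each coloured line joins arrays with the same replicate number and each black bar is the mean of 3. Replicate 1 lies highest for NDC80 and HMGCS1 throughout, CHEK1 peaks at 8 h, and NAT8 is highest at 12 h.

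The 3 members of the complement, protease and scavenger receptor group were CFI, a protease that cleaves complement, CTSS, a lysosomal cathepsin, and OLR1, a receptor for oxidised lipoprotein. CFI rose by 0.54 ± 0.10 (limma adjusted p = 0.00255) and OLR1 by 0.44 ± 0.13 (limma adjusted p = 0.0363). CFI was called in each of the 9 fits without 1 array and OLR1 in 3 of them, and OLR1 was called in 1 of the 3 blocked fits without an array at 8 h. CTSS differed by 0.69 ± 0.23 and was called with the block only (limma adjusted p = 0.000384 with it and 0.0751 without it).

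TMEM236, a membrane protein, had the second largest difference at 12 h of all members. It was at 6.77, 6.42 and 6.54 at 0 h and 7.57, 7.98 and 7.6 at 12 h, a difference of 1.14 ± 0.16. Early it was at 6.76, 6.59 and 6.53 at 0.5 h and 7.03, 6.68 and 6.65 at 1 h, and at 8 h it was at 7.6, 7.35 and 7.03 (probe set 15200890). Its lowest array at 8 h equalled its highest early array to the decimals printed, and it rose by 0.62 ± 0.14 (limma adjusted p = 0.0103).

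Of the remaining members, NCOA3, a coactivator of nuclear receptors, rose by 0.72 ± 0.14 (limma adjusted p = 0.00374), and its other probe set by 0.74 ± 0.10. That other set was already 0.25 above 0 h at 4 h, over the limit of 0.2, so it did not meet the rule. SH3GL2, an endophilin of vesicle uptake, rose by 0.82 ± 0.18, GPR137B, a lysosomal membrane protein, by 0.67 ± 0.14, and GPN3, a GTPase, by 0.69 ± 0.17. MTFR2, a mitochondrial protein (1.2 ± 0.51), and APOF, an apolipoprotein (0.93 ± 0.29), were called with the block only. HMGB2, a chromatin protein, differed by 0.35 ± 0.17 and was called in neither fit; its mean was a further 0.48 higher at 12 h.

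NFATC1, a calcium-regulated transcription factor, rests on weak evidence. It was at 3.88, 5.23 and 5.48 at 0 h, 3.09, 5.43 and 5.1 at 8 h and 5.25, 5.84 and 5.64 at 12 h, with replicate 1 far below the others except at 12 h. Its other probe set, with a mean of 2.73 beside 4.82, differed by -0.06 between 12 and 0 h. In all, 7 further probe sets carried the symbol of a member. Those of ATAD5 (1.44 ± 0.20) and GINS4 (0.73 ± 0.20) were called higher at 8 h, as was that of NCOA3; those of MASTL (1.2 ± 0.40) and CKAP2L (0.87 ± 0.54) were called with the block only; those of NFATC1 and SLFN11 were not called. For 11 members the mean signal over the arrays lay below the lowest array median, 5.59.

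Over the 18 arrays, the profile of PCLAF was most like those of 5 genes, 3 of them members: NEIL3 (Pearson r = 0.963), MASTL (r = 0.961) and CKAP2 (r = 0.954). The other 2 were among the genes set aside by symbol. With the mean of each replicate number taken out, r was 0.939, 0.95 and 0.954. The points share their arrays, times and replicate numbers, and members were chosen on part of them, so these values are descriptions.

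Markers of the cell line and its treatment moved over the same hours. All 4 measured epithelial markers and all 9 measured proximal tubule markers had means above every array median. The mean level of the proximal tubule markers ran from 9.36 to 9.61 at 0.5 h, from 9.29 to 9.55 at 1 h and from 8.80 to 8.87 at 8 h; 5 of the 9 were lower at 8 h and 0 higher, or 9 and 0 with the block. The epithelial marker KRT19 (0.31 ± 0.08, limma adjusted p = 0.0308) and the podocyte marker PODXL (0.77 ± 0.16, limma adjusted p = 0.0066) were higher at 8 h, each 1 of its list (4 and 3 measured), and EPCAM was also higher with the block. Of 4 endothelial, 5 immune, 7 fibroblast, 5 distal and collecting duct and 2 muscle markers measured none was called in either fit. All 4 endothelial and both muscle markers had means below the array medians, as did 4 of the 5 immune markers, with PTPRC at 2.88 and CD3E, the exception, at 7.8. Of the 7 fibroblast markers 3 were above them, COL1A2 at 11.82. The retinoid-induced genes DHRS3 and CYP26A1, which are no members, were already 2.2 and 1.79 above 0 h at 4 h. They had the largest differences at 4 h among the 19 measured genes of a list of 36 for retinoid action. Of these 19, 3 were higher at 8 h than early and 1 lower, also with the block, with a median difference of 0.05. The lower one was STRA6 (-0.40 ± 0.09, limma adjusted p = 0.00779). Over all genes 7.32% were higher and 5.61% lower. The part of these changes in the members' rise was not tested.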

How the data were processed

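Total RNA of 18 LLC-PK1 samples was hybridised to Affymetrix porcine arrays. The authors deposited log2 values, 1 per probe set and array, made with Transcriptome Analysis Console 2.0.0.9 per the submitters' processing notes; no source used here gives their summarization or normalization. Values ran from 0.882 to 13.86 and array medians from 5.59 to 5.67, and they were used as deposited. Arrays of 1 time correlated at 0.9817 to 0.9946.

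Of 27558 probe sets, 13323 carried 1 symbol in the platform annotation, 357 several and 13878 none; 12925 were found by Entrez identifier in RefSeq, and 7 symbols were updated. Each of 12361 genes was represented by its brightest probe set on average. The members, roles, lists and tests were chosen with earlier results of these data known.

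A mean per time was fitted to 18 arrays with limma 3.58.1 in R 4.3.3 (lmFit, eBayes, two-sided, Benjamini-Hochberg over 27558 probe sets), and the script was tested on simulated data. A call is an adjusted p under 0.05, and an error after ± is the SE of the fit without the block, with 3 arrays per time; this number limits the precision. Any member could be named; full values went to members with large differences at 12 h or 8 h, members of each list, the genes nearest the thresholds and the 5 genes most like the leading member.

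The labels call the arrays biological replicates and do not say that a number marks a shared batch. After the group means were removed, all 9 pairs of arrays with the same number at 0.5, 1 and 8 h correlated above 0.1 (0.179 to 0.473). Over all 45 pairs the median was 0.242 and 39 were above 0.1, beside a median of -0.15 between different numbers. The numbers were therefore taken to pair the arrays, and results with the number as a block are given where they change a call. The alternatives were this block, other normalization, filter, variance trend and early level, and fits without single arrays or numbers. A search for promoter motifs was not run.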

Additional observations from a re-analysis of the deposited data

How the results depend on the processing

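The number of members was 63 as deposited, 41 to 78 without a single array and 50 to 87 without a replicate number, and from 52 (filter on low signal) to 64 (quantile normalization) under the other settings. Pairing by the replicate number as a block raised the members called higher at 8 h from 31 to 55. Without the block, single arrays left out gave 19 to 36 and whole replicate numbers 3 to 46; it was 29 on the 9 arrays at 0.5, 1 and 8 h alone, 34 with a variance trend, 31 after quantile normalization or the filter, and 21 or 23 against 0.5 h or 1 h alone. Fits that combined the block with samples left out were chosen after seeing the data; they gave 54, 36 and 34 without replicate 1, 2 and 3 and 51, 47 and 51 without that array at 8 h. None of these fits called a member lower. Between 0.5 and 1 h no member was called with the block, in the other full fits or without single arrays or numbers; the combined fits were not used for that comparison. The median difference of the members was 0.717, from 0.576 to 0.866 without single arrays, from 0.707 to 0.777 without a replicate number and from 0.686 to 0.786 with the block too.

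Signs turned for 5 members, none of them called. Without replicate 1 at 8 h, DIAPH3 stood at -0.10, DLGAP5 at -0.29, INSIG1 at -0.05 and NFATC1 at 0.39. AVPR2 stood at -0.06 without replicate 2 at 8 h and at -0.07 without replicate 2 altogether; with the block these were -0.04 and -0.07. Over all fits without a single array the highest values were 0.62 for DIAPH3, 0.77 for DLGAP5 and 0.38 for INSIG1, and the lowest for NFATC1 was -0.78. The cause was not tested. Leaving out samples also leaves fewer to estimate the spread. The members were picked on differences near 0.6, so which genes enter depends on single arrays, and 11 members lie below the array medians in signal.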
